A study of Homo sapiens with 12 samples.

Results

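The 41 genes described here encode proteins that fold, modify, translocate or discard secretory proteins in the endoplasmic reticulum (ER), together with the sensors that adjust them. They were taken as the rows of both deposited expression tables that carry one of 41 chosen gene symbols, and all 41 were found among the 16426 genes that both tables hold. They comprised 8 chaperones and co-chaperones, 2 lectin chaperones, 8 disulfide enzymes and related proteins, 12 genes of ER-associated degradation (ERAD), 7 sensors and factors, and 4 genes of the translocon. RNA was sequenced from HCC827 and NCI-H1975, both established lines of non-small cell lung cancer whose EGFR gene carries an activating mutation. The compound 18E was given to each line at 2.5 or 5 µM, labelled as 24 h at both doses, with DMSO as its control. A second experiment used the siRNAs siDYN-1 and siDYN-2, labelled as 48 h, with siCON as their control. Each line and treatment had 1 library, so 12 libraries were compared, and no time was given for DMSO or siCON.

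New secretory and membrane proteins enter the ER through the SEC61 channel and are folded by HSP70-type, HSP90-type and lectin chaperones while oxidoreductases form their disulfide bonds. Proteins that fail to fold are moved back to the cytosol and degraded, which is called ERAD. When unfolded proteins accumulate, ATF6, the kinase and nuclease IRE1 (encoded by ERN1) and the kinase PERK (encoded by EIF2AK3) start the unfolded protein response. ATF6 and spliced XBP1 raise many chaperone and ERAD genes in this response, and PERK acts through ATF4.

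Depth is unknown, since the tables give FPKM, a level that is divided by transcript length and by library size, with no read totals. FPKM sums ranged from 486409 to 685680 per library and the number of genes listed at 0 from 534 to 2212. The 6 epithelial markers lay between 27.5 and 3014 FPKM and the lung lineage factor NKX2-1 between 7.14 and 44.7 FPKM. All 3 blood markers found stayed at or below 4.23 FPKM, the 3 endothelial ones at or below 1.47 FPKM and the 3 stromal ones at or below 1.38 FPKM. NKX2-1 had 21.4 and 7.14 FPKM in HCC827 with 2.5 and 5 µM 18E, against 32.3 FPKM with DMSO. The NCI-H1975 libraries had 20.3 and 15.8 FPKM with 18E, against 44.7 FPKM with DMSO. DYNC1LI1, the gene of the dynein subunit LIC1 that the study's title names, had 2.42 FPKM with siDYN-1 and 1.22 FPKM with siDYN-2 in HCC827, against 16.3 FPKM with siCON. The same gene had 5.1 FPKM with siDYN-1 and 3.04 FPKM with siDYN-2 in NCI-H1975, against 23.7 FPKM with siCON.

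Some promoters of these genes hold elements known from earlier work on the unfolded protein response. Because that work concerned genes of this response, the shares below describe the list and are no independent evidence. In 300-base windows from RefSeq (GRCh38.p14; 250 bases before and 50 after each start site), 38 of the 41 genes had a window. The ER stress response element (ERSE), searched as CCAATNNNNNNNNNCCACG on both strands, was found in 8 of the 38 (21.1%), against 0.0916% of all 27305 genes with a window. These were HSPA5, HSP90B1, CALR, CANX, PDIA6, ERO1B, CRELD2 and XBP1. ERSE-II, searched as ATTGGNCCACG, was found in HYOU1, SDF2L1 and HERPUD1 (7.89%), against 0.0696% of all genes. The core TGACGTGG of the unfolded protein response element lay in HYOU1, where it overlaps an ERSE-II match, and in SSR3 (5.26%), against 0.927% of all genes. The C/EBP-ATF element, searched as the exact letters TGATGNAATC, was found in 0 of the 38 genes, against 0.275% of all genes. The HERPUD1 promoter printed below holds a near match to these letters on the opposite strand, which the search did not count. Shorter or variant forms of the elements were not searched, so a gene without a match may still hold such a form. The following 250 bases upstream of the RefSeq start are those of the 4 genes with an ERSE or ERSE-II match and the largest fitted change at 5 µM 18E, with the match in capitals. They are chr16:56931892-56932141 on the plus strand for HERPUD1, chr9:125241344-125241593 on the minus strand for HSPA5, chr22:28800570-28800819 on the minus strand for XBP1, and chr12:103930160-103930409 on the plus strand for HSP90B1.
HERPUD1: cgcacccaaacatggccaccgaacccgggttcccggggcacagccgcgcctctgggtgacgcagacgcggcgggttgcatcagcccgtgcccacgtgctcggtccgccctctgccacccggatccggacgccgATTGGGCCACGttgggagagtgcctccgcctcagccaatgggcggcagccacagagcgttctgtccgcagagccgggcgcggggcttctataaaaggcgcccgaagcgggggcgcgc
HSPA5: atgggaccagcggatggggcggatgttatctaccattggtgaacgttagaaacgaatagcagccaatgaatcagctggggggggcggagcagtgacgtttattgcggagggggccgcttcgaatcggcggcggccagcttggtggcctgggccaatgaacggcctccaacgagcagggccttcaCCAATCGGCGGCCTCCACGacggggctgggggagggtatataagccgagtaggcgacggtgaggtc
XBP1: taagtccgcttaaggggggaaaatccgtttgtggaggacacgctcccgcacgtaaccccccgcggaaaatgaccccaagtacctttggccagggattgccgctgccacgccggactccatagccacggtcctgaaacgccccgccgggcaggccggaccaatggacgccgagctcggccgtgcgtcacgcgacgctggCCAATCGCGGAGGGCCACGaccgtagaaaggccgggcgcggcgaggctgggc
HSP90B1: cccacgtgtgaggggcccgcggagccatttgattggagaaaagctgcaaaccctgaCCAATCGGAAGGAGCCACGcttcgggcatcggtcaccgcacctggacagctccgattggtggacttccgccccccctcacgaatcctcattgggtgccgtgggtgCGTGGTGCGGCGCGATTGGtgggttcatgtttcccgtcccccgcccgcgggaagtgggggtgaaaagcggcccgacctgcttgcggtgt
The HSPA5 match lies at positions -66 to -48 and the XBP1 match at -52 to -34 from the start site. HERPUD1 holds the shorter ERSE-II at -117 to -107, and HSP90B1 holds an ERSE on each strand, at -194 to -176 and at -89 to -71. A match is a run of letters in the window and was not tested as a binding site.

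The first question is which of these genes differed with 18E. HSPA5, DNAJB9 and HERPUD1 had the largest fitted differences, were at least 2-fold higher with 5 µM 18E than with DMSO in both lines, and were the only members to be so. Most other chaperones were near or below their DMSO level in HCC827 and above it in NCI-H1975. Disulfide enzymes and part of the ERAD genes were lower in HCC827. All differences are on the log2(FPKM + 1) scale, which understates those of low genes. Of the 41 genes, 40 reached 1 FPKM in 2 or more libraries of the 6 and were tested with limma over 11953 genes. ERO1B, a disulfide oxidase, did not reach that level, with 0.23, 0.15 and 2.15 FPKM in HCC827 and 0.07, 0.06 and 0.37 FPKM in NCI-H1975 with DMSO, 2.5 and 5 µM.

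**Figure D1:**
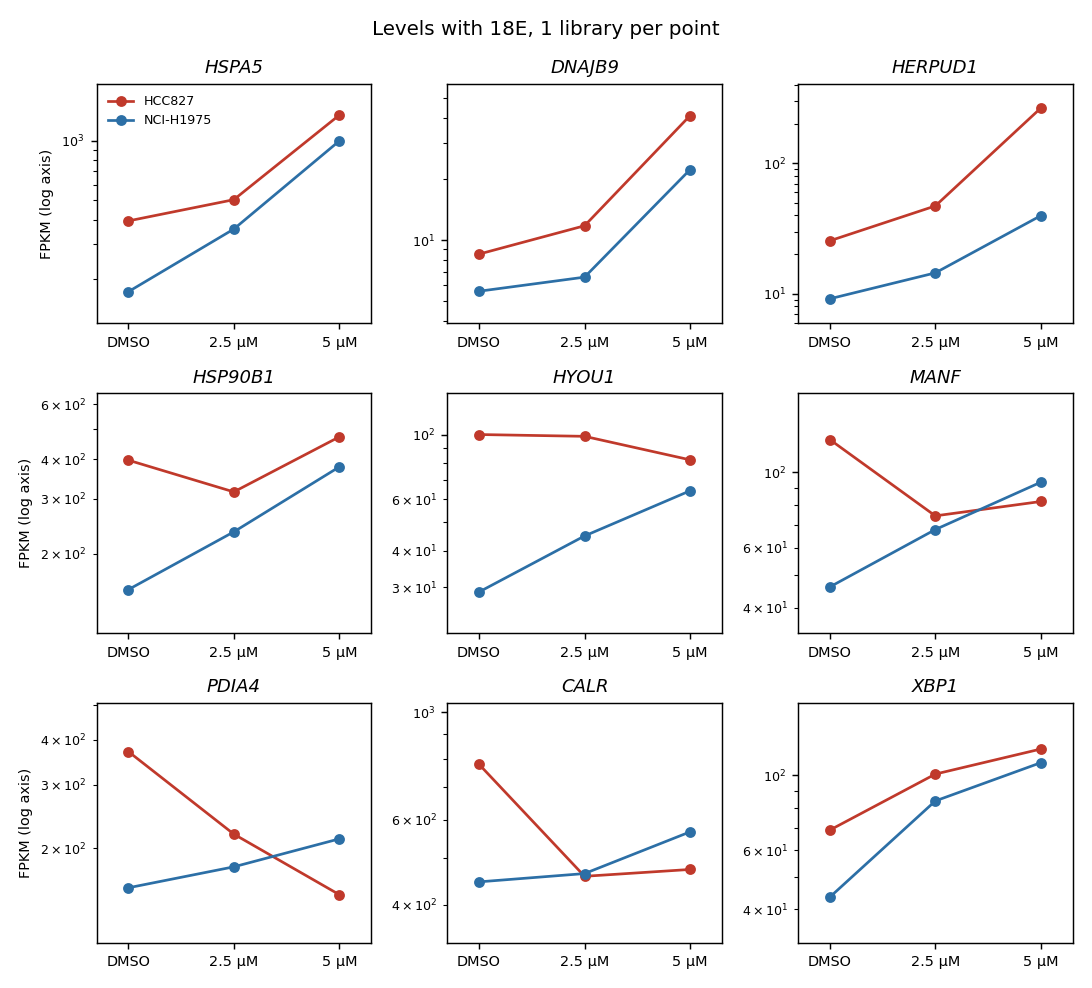
FPKM (log axis) of 9 genes with DMSO, 2.5 µM and 5 µM 18E; each point is 1 library, red for HCC827 and blue for NCI-H1975. HSPA5, DNAJB9, HERPUD1, HSP90B1 and XBP1 were higher at 5 µM than with DMSO in both lines. HYOU1, MANF, PDIA4 and CALR were lower at 5 µM in HCC827 and higher in NCI-H1975.

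HSPA5 encodes BiP, the HSP70 of the ER. It had 394, 504 and 1345 FPKM in HCC827 with DMSO, 2.5 and 5 µM 18E. The NCI-H1975 libraries had 173, 358 and 997 FPKM in the same order. Both lines were thus higher at each dose than at the one before, and the fitted log2 difference was 0.70 ± 0.21 (SE) at 2.5 µM and 2.15 ± 0.21 at 5 µM (limma adjusted p = 0.915 and 0.0901).

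DNAJB9, or ERdj4, is a J-protein that works with BiP and aids degradation of its clients. It had 8.54, 11.8 and 40.9 FPKM in HCC827 and 5.61, 6.58 and 22.2 FPKM in NCI-H1975 with DMSO, 2.5 and 5 µM. Nearly all of its difference lay between the doses: the fitted log2 difference of 5 µM over 2.5 µM was 1.67 ± 0.17, against 0.31 ± 0.17 for 2.5 µM over DMSO (limma adjusted p = 0.411 and 0.915). At 5 µM over DMSO it was 1.97 ± 0.17, with the smallest adjusted p of the 40 genes (limma, 0.0844).

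HERPUD1 encodes a membrane protein of the ERAD complex. It had 25.5, 47.1 and 266 FPKM in HCC827 with DMSO, 2.5 and 5 µM, and 9.14, 14.5 and 39.7 FPKM in NCI-H1975. Its log2 difference reached 3.33 in HCC827 and 2.00 in NCI-H1975 with 5 µM, and the fitted one was 2.67 ± 0.33 (limma adjusted p = 0.101). It was the largest of the 40 fitted differences.

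At 5 µM the other chaperones lay farther above DMSO in NCI-H1975 than in HCC827. Of these, HSP90B1, DNAJB11 and SDF2L1 were above DMSO in both lines. HSP90B1, the ER HSP90 (GRP94), had 398, 315 and 472 FPKM in HCC827 and 154, 235 and 379 FPKM in NCI-H1975 with DMSO, 2.5 and 5 µM. HYOU1, an HSP70-related chaperone and exchange factor, had 100.2, 98.8 and 82.0 FPKM in HCC827 and 28.9, 45.0 and 64.2 FPKM in NCI-H1975. SDF2L1, a cofactor of the ER HSP40 proteins, had 31.7, 23.7 and 33.6 FPKM in HCC827 and 60.8, 111 and 132 FPKM in NCI-H1975. In NCI-H1975 each of these was higher at each dose than at the one before, and none was so in HCC827. MANF, a secreted stress protein that binds BiP, had 125, 74.5 and 82.2 FPKM in HCC827 and 46.1, 67.9 and 93.6 FPKM in NCI-H1975. DNAJB11 and DNAJC3, J-proteins that assist BiP, at 5 µM differed from DMSO by 0.42 and -0.09 log2 in HCC827 and by 1.00 and 0.64 in NCI-H1975. All 8 chaperones were thus above DMSO in NCI-H1975 at 5 µM, as were 4956 of all 11953 genes. Of the 8, 7 were at least 2-fold higher, against 1.79% of all genes. With equal totals 3 of them were (HSPA5, HSP90B1 and DNAJB9), against 1.37% of all genes. The median log2 difference of the 8 at 5 µM was 0.16 in HCC827 and 1.12 in NCI-H1975, against -0.10 and -0.07 over all genes.

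The lectin chaperones hold glycoproteins while they fold. CALR (calreticulin) had 781, 458 and 473 FPKM in HCC827 with DMSO, 2.5 and 5 µM and 446, 464 and 566 FPKM in NCI-H1975. CANX (calnexin) had 239, 253 and 195 FPKM in HCC827 and 162, 208 and 219 FPKM in NCI-H1975. Both were below DMSO in HCC827 and above it in NCI-H1975 at 5 µM, as were 15.8% of all genes.

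All 7 tested disulfide genes were lower with 5 µM 18E than with DMSO in HCC827, with a median log2 difference of -0.29. In NCI-H1975 6 of the 7 were higher, with a median of 0.37. Of all 11953 genes, 6811 were lower in that HCC827 library (median -0.10) and 4956 were higher in that NCI-H1975 library (median -0.07). PDIA4 (ERp72), a protein disulfide isomerase, had 371, 219 and 149 FPKM in HCC827 and 155, 178 and 212 FPKM in NCI-H1975 with DMSO, 2.5 and 5 µM. PDIA6 (P5), of the same family, had 287, 219 and 175 FPKM in HCC827 and 151, 170 and 195 FPKM in NCI-H1975. Both were ordered by dose in opposite directions in the 2 lines. CRELD2, an ER stress-responsive protein with EGF-like repeats, had 30.6, 15.2 and 24.9 FPKM in HCC827 and 16.9, 20.8 and 28.3 FPKM in NCI-H1975. Its relative CRELD1 was low, with 5.63, 5.73 and 4.57 FPKM in HCC827 and 1.2, 3.0 and 4.9 FPKM in NCI-H1975. ERO1A, which reoxidises the isomerases, had 68.3, 50.9 and 32.9 FPKM in HCC827 and 55.5, 46.3 and 43.5 FPKM in NCI-H1975. It was the 1 disulfide gene below DMSO in both lines, with a fitted log2 difference of -0.69 ± 0.21 at 5 µM (limma adjusted p = 0.129). PDIA3 and P4HB, the abundant isomerases, at 5 µM differed from DMSO by -0.16 and -0.09 in HCC827 and by 0.37 and 0.19 in NCI-H1975.

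**Figure D2:**
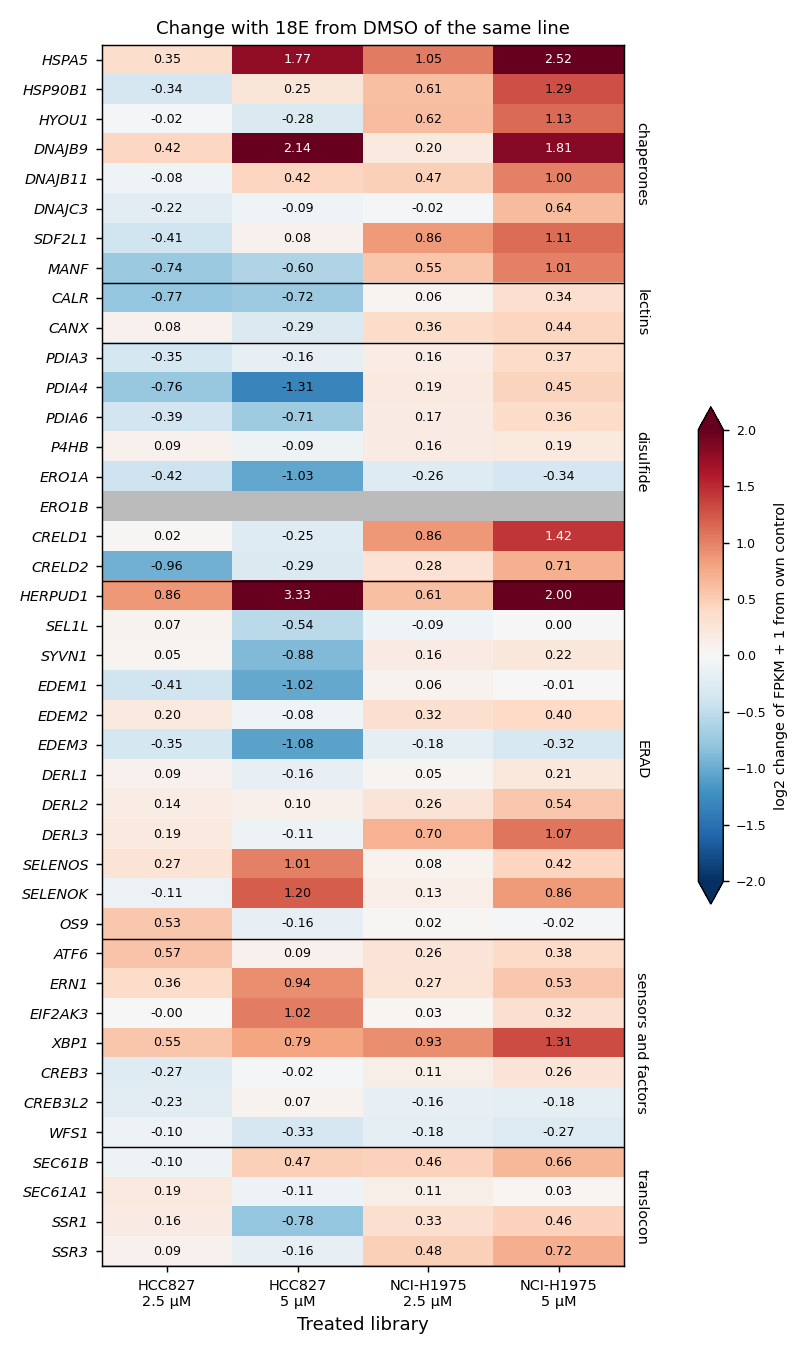
log2 difference of FPKM + 1 between each 18E library and the DMSO library of its own line, for the 41 genes by role, with grey for ERO1B, which did not pass the filter on low values. Colours run to 2 in either direction. At 5 µM the chaperone block is positive in all 8 genes in NCI-H1975, where 4956 of all 11953 genes were. The disulfide block is negative in all 7 tested genes in HCC827, where 6811 of all 11953 genes were.

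The 12 ERAD genes differed from DMSO in both directions. SELENOK, an ER membrane selenoprotein, had 20.2, 18.6 and 47.8 FPKM in HCC827 and 21.4, 23.6 and 39.6 FPKM in NCI-H1975 with DMSO, 2.5 and 5 µM. SELENOS, a selenoprotein that links the complex to the ATPase p97, at 5 µM was above DMSO by 1.01 log2 in HCC827 and by 0.42 in NCI-H1975. EDEM3, a mannosidase-like protein that marks glycoproteins for disposal, had 10.7, 8.2 and 4.56 FPKM in HCC827 and 6.55, 5.65 and 5.04 FPKM in NCI-H1975. Its paralogue EDEM1 had 9.2, 6.7 and 4.02 FPKM in HCC827 and 8.41, 8.84 and 8.32 FPKM in NCI-H1975. EDEM3 was below DMSO in both lines, and EDEM1 was so by more than 0.1 log2 in HCC827 only. The ubiquitin ligase SYVN1 (HRD1) and its partner SEL1L were lower than DMSO by log2 differences of -0.88 and -0.54 in HCC827 at 5 µM, and stood at 0.22 and 0.00 in NCI-H1975. DERL3, of the derlin family of membrane factors, had 0.25, 0.43 and 0.16 FPKM in HCC827 and 1.69, 3.36 and 4.65 FPKM in NCI-H1975. DERL1, DERL2, EDEM2 and the lectin OS9 at 5 µM differed from DMSO by -0.16 to 0.10 in HCC827 and by -0.02 to 0.54 in NCI-H1975.

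XBP1, the factor made active when IRE1 splices its mRNA, had 68.8, 101 and 120 FPKM in HCC827 and 43.5, 84.0 and 109 FPKM in NCI-H1975 with DMSO, 2.5 and 5 µM. The tables do not separate the spliced form. Its fitted log2 difference was 0.74 ± 0.18 at 2.5 µM and 1.05 ± 0.18 at 5 µM (limma adjusted p = 0.915 and 0.101). ERN1 had 1.91, 2.74 and 4.57 FPKM in HCC827 and 1.2, 1.66 and 2.18 FPKM in NCI-H1975, higher at each dose in both lines. EIF2AK3 had 7.16, 7.15 and 15.5 FPKM in HCC827 and 7.63, 7.83 and 9.78 FPKM in NCI-H1975, so its difference lay at 5 µM. ATF6 had 15.6, 23.6 and 16.6 FPKM in HCC827 and 21.9, 26.4 and 28.7 FPKM in NCI-H1975. WFS1, an ER membrane protein that restrains the response, had 9.01, 8.33 and 6.96 FPKM in HCC827 and 9.77, 8.48 and 7.95 FPKM in NCI-H1975, below DMSO at each dose in both. The ER-anchored factors CREB3 and CREB3L2 differed from DMSO by less than 0.3 in every 18E library.

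Among the translocon genes, SEC61B, a small subunit of the channel, had 160, 149 and 222 FPKM in HCC827 and 222, 306 and 352 FPKM in NCI-H1975 with DMSO, 2.5 and 5 µM. SSR1 and SSR3 encode subunits of the translocon-associated protein complex. SSR1 had 15.7, 17.7 and 8.74 FPKM in HCC827 and 12.4, 15.9 and 17.5 FPKM in NCI-H1975. SSR3 had 49.8, 53.1 and 44.3 FPKM in HCC827 and 41.2, 57.8 and 68.6 FPKM in NCI-H1975. SEC61A1, the channel itself, had 142, 162 and 131 FPKM in HCC827 and 126, 136 and 129 FPKM in NCI-H1975. All 4 were above DMSO in NCI-H1975 at 5 µM, and SEC61B alone was above it in HCC827. Of all 11953 genes, 4956 were above DMSO in NCI-H1975 and 5109 in HCC827 at that dose. The SEC61A1 difference in NCI-H1975 (0.03) turned negative with equal totals or quantile normalization.

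Across the whole table, limma with Benjamini-Hochberg adjustment called 0 of the 40 genes at 5 µM, where it called 0.00837% of all genes (1 gene), and 0 of the 40 at 2.5 µM and between the doses, where it called 0% of all genes. At an unadjusted p under 0.05, 11 of 40 genes were higher at 5 µM, against 10.0% of all genes. These were HSPA5, HSP90B1, DNAJB9, DNAJB11, HERPUD1, SELENOS, SELENOK, XBP1, ERN1, EIF2AK3 and SEC61B. ERO1A and EDEM3 were lower at that level, 2 of 40, against 16.8% of all genes. At 2.5 µM, HSPA5 and XBP1 were higher, 2 of 40, against 3.25% of all genes, and 0 were lower, against 2.01%. Between 5 and 2.5 µM, 7 were higher (HSPA5, DNAJB9, DNAJB11, HERPUD1, SELENOS, SELENOK and EIF2AK3), against 3.71% of all genes, and 0 were lower, against 8.05%. The median fitted log2 difference of the 40 genes was 0.21 at 5 µM, 0.14 at 2.5 µM and 0.13 between the doses, against -0.09, 0.00 and -0.10 over all genes. The residual had 2 degrees of freedom and measures how far the lines disagree. A pseudocount of 0.1 in place of 1 gave 2 calls among the 40 members at 5 µM, against 0.134% of all genes. Fits with a library left out have fewer residual degrees of freedom than this. Leaving out 1 library gave 3 or 4 calls among the 40, against 0.279% to 3.00% of all genes, except without the NCI-H1975 library of 5 µM. Without that library, where HCC827 alone stands for the dose, 15 of 40 (37.5%) were called, against 37.8% of all genes. The median at 5 µM was then -0.04, as it also was without the NCI-H1975 DMSO library.

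Counted in single libraries, 0 genes were at least 2-fold higher or lower in HCC827 at 2.5 µM, against 1.24% and 0.502% of all genes. At 5 µM in HCC827, 6 were at least 2-fold higher (HSPA5, DNAJB9, HERPUD1, SELENOS, SELENOK and EIF2AK3), against 7.40% of all genes. In the same library 4 were at least 2-fold lower (PDIA4, ERO1A, EDEM1 and EDEM3), against 7.25%. In NCI-H1975 at 2.5 µM, HSPA5 alone was 2-fold higher, 1 of 40, against 0.678% of all genes, and 0 were 2-fold lower, against 0.251%. At 5 µM in NCI-H1975, 11 were at least 2-fold higher, against 1.79% of all genes, and 0 were 2-fold lower, against 1.13%. The 11 were HSPA5, HSP90B1, DNAJB9, DNAJB11, HYOU1, SDF2L1, MANF, CRELD1, HERPUD1, DERL3 and XBP1. With libraries scaled to equal totals, which moves the median of all genes in that library by -0.11, the 11 became 6, against 1.37% of all genes. In both lines at 5 µM, 3 were 2-fold higher, against 1.07% of all genes, and 0 were 2-fold lower, against 0.510%. In all 4 libraries with 18E, 8 were higher than DMSO (HSPA5, DNAJB9, HERPUD1, DERL2, SELENOS, XBP1, ATF6 and ERN1), against 17.8% of all genes. In all 4, 3 were lower (ERO1A, EDEM3 and WFS1), against 23.8%.

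The second question is where the lines differed in their response. At 5 µM, 19 of the 40 genes were lower than DMSO in HCC827 and higher in NCI-H1975, against 15.8% of all genes, and 14 were higher in both lines, against 25.5%. At both doses, 8 were lower in HCC827 and higher in NCI-H1975, against 5.81% of all genes, and 0 had the reverse pattern, against 8.01%. The 8 were HYOU1, CALR, PDIA3, PDIA4, PDIA6, MANF, CRELD2 and CREB3; with equal totals CALR was below DMSO in NCI-H1975 at 2.5 µM, and with quantile normalization CREB3 was above it in HCC827 at 5 µM. All but CREB3 are chaperones, lectins or disulfide genes.

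The difference between the lines was fitted as an interaction, with the doses standing in for replicates. It called 0 of the 40 genes, and 0% of all genes (limma, smallest adjusted p among the 40 = 0.999). At an unadjusted p under 0.05, 0 of the 40 had a larger log2 difference in HCC827, against 0.820% of all genes. In the opposite direction there were 6 of 40 (CALR, PDIA4, PDIA6, SDF2L1, MANF and CRELD1), against 0.895% of all genes. The widest gap was that of MANF, -1.45 ± 0.37 (SE), HCC827 minus NCI-H1975, followed by PDIA4 with -1.36 ± 0.41 and CRELD1 with -1.26 ± 0.48. HERPUD1 had the largest gap the other way, 0.79 ± 1.54. With the doses as replicates, this error holds the step from 2.5 to 5 µM, fitted at 1.934 for HERPUD1. The error therefore cannot judge the gap at 5 µM, where the log2 difference was 3.333 in HCC827 and 2.005 in NCI-H1975. Errors were also wide for DNAJB9 (1.299) and HSPA5 (1.109), which had large dose steps, against 0.268 for CALR. Which genes had an unadjusted p under 0.05 thus depended on the dose step as well as on the gap. The median over the 40 genes was -0.46, against 0.00 over all genes. By role it was -0.86 for chaperones, -0.72 for lectins, -0.81 for disulfide genes, -0.23 for ERAD, 0.01 for sensors and factors, and -0.51 for the translocon. An adjusted p that misses the threshold does not show that the lines responded alike.

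**Figure D3:**
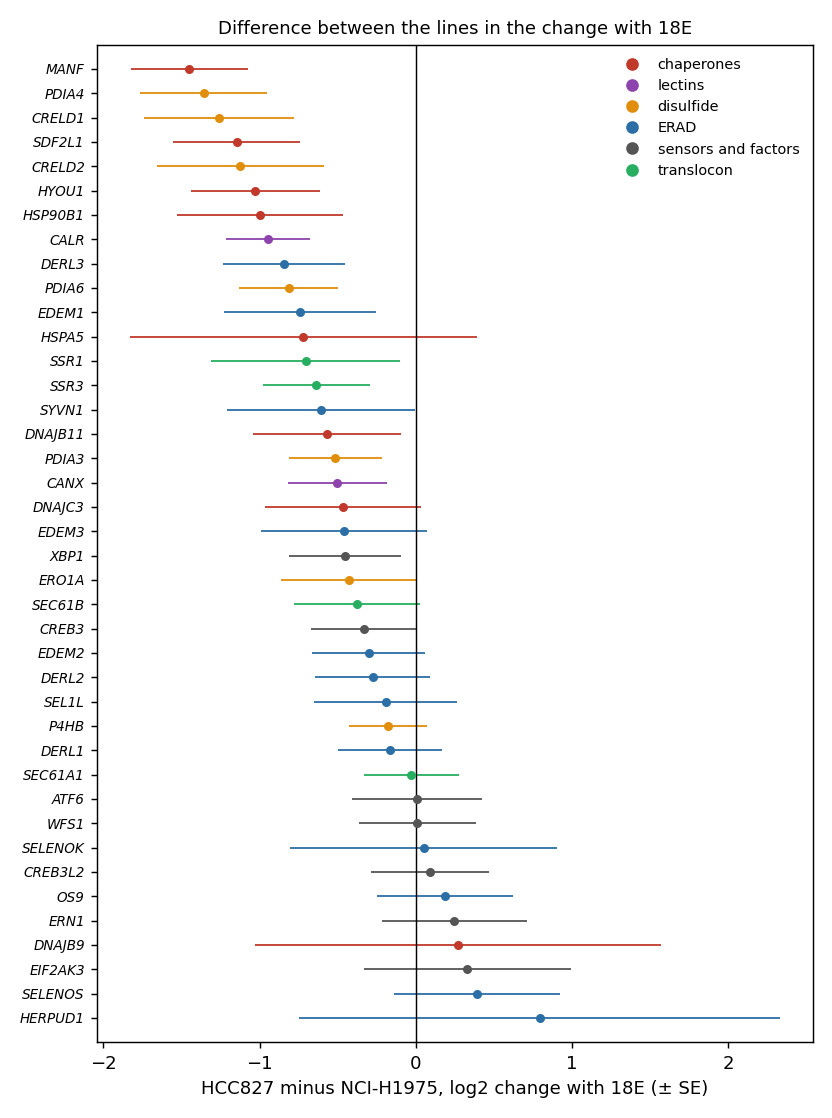
Fitted difference between the lines in the log2 change with 18E (HCC827 minus NCI-H1975, both doses) with its SE, for the 40 tested genes coloured by role. MANF (-1.45), PDIA4 (-1.36) and CRELD1 (-1.26) lie farthest left, and all 7 disulfide genes lie left of 0.

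The lines also started from different levels. With DMSO, 7 of 8 chaperones and 7 of 7 tested disulfide genes were higher in HCC827 than in NCI-H1975, with median log2 gaps of 1.03 and 0.91, against -0.13 over all genes. SDF2L1 was the 1 chaperone lower in HCC827. At 2.5 µM the gaps were 0.46 for chaperones and 0.30 for disulfide genes, and at 5 µM they were 0.23 and -0.15, with 2 of 7 disulfide genes still higher in HCC827. Over the same doses the median gap of all genes was -0.09 and -0.11. Of all 11953 genes, 5090 were higher in HCC827 with DMSO and 5349 were at 5 µM. The median gaps of these roles were thus smaller at 5 µM than with DMSO. Not every gene followed: from DMSO to 5 µM the SDF2L1 gap went from -0.915 to -1.947 and the DNAJB9 gap from 0.529 to 0.853. The ERO1A gap went from 0.296 to -0.394. In the siCON libraries of the other experiment the gaps were 0.54 for chaperones and 0.68 for disulfide genes, with 6 of 8 and 7 of 7 higher in HCC827. The median gap of all genes with siCON was -0.14, with 4841 of 11718 higher in HCC827. A gap in the control libraries enters the difference between the lines, since each line had 1 DMSO library, and its part in the result was not tested.

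**Figure D4:**
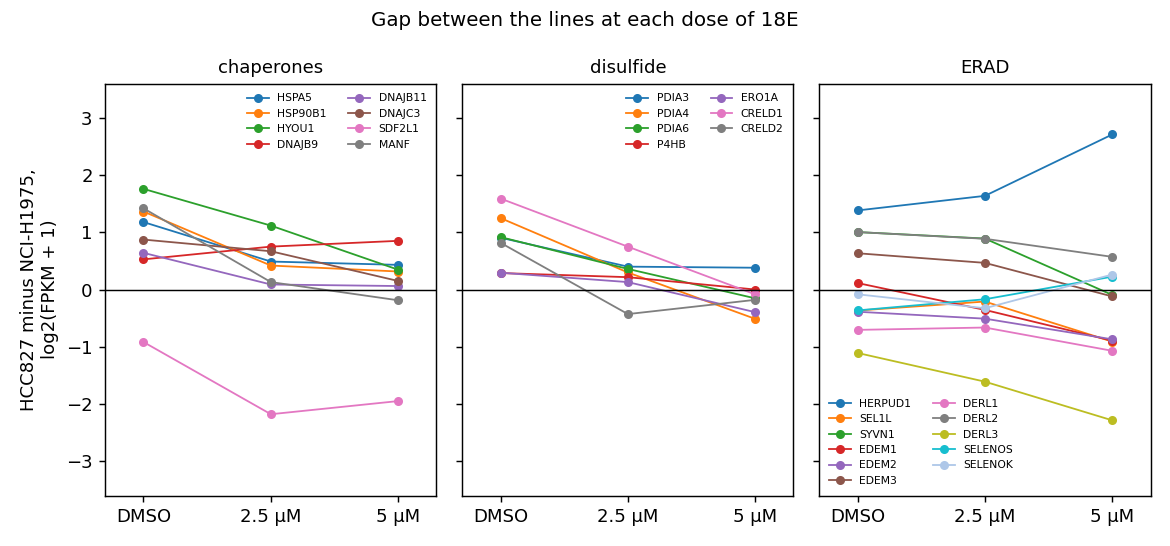
Gap between the lines (HCC827 minus NCI-H1975, log2 of FPKM + 1) with DMSO, 2.5 µM and 5 µM 18E, for chaperones, disulfide genes and ERAD genes; each point compares 2 libraries, ERO1B (below the filter) is left out, and so is OS9, whose gap of 4.09 to 4.75 lies off the axis. The median gap was 1.03 with DMSO and 0.23 at 5 µM for chaperones, and 0.91 and -0.15 for disulfide genes.

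The 10 tested genes with an ERSE or ERSE-II match can be set beside the 27 genes that have a promoter window with neither. In HCC827 at 5 µM, 5 of the 10 were above DMSO, 2 of them at least 2-fold, with a median log2 difference of -0.10. Of the 27 others, 10 were above DMSO, 4 of them at least 2-fold, with a median of -0.09. Of all 11953 genes, 5109 were above DMSO in that library, 7.40% were at least 2-fold higher, and the median was -0.10. In NCI-H1975 at 5 µM, all 10 were above DMSO, 6 of them at least 2-fold, with a median of 1.12. Of the 27 others, 20 were above DMSO, 4 of them at least 2-fold, with a median of 0.40. Over all genes 4956 were above DMSO there, 1.79% were at least 2-fold higher, and the median was -0.07. These counts are descriptions, with no test.

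Other genes of the pathway were taken from a list of 57 ER genes and a list of 8 genes of the PERK arm. Of the 57, limma called 0 at 5 µM, 28 had a positive and 29 a negative fitted difference, and the median was -0.01. At an unadjusted p under 0.05, 2 of the 57 were higher, against 10.0% of all genes, and 7 were lower, against 16.8%. In HCC827 at 5 µM 38 of the 57 were below DMSO, with a median of -0.24, and in NCI-H1975 25 were, with a median of 0.08; over all genes the medians were -0.10 and -0.07. SEC11C, a signal peptidase subunit, had 36.1 and 53.9 FPKM in HCC827 with 2.5 and 5 µM 18E, against 25.9 FPKM with DMSO. NCI-H1975 showed 44.1 and 61.8 FPKM with 18E, against 19.5 FPKM with DMSO. GANAB, the catalytic subunit of glucosidase II, had 102 FPKM in HCC827 and 90.3 FPKM in NCI-H1975 at 5 µM, against 216 and 131 FPKM with DMSO in the same lines. Of the 8 PERK arm genes, 8 had a positive fitted difference at 5 µM, 7 at an unadjusted p under 0.05 and 0 by adjusted p, with a median of 1.95. DDIT3 (CHOP) had 92.2 and 402 FPKM in HCC827 with 2.5 and 5 µM 18E, against 18.7 FPKM with DMSO. The NCI-H1975 libraries had 53.3 and 156 FPKM with 18E, against 18.2 FPKM with DMSO. SESN2 and PPP1R15A, further stress-induced genes, were 3.20 and 3.23 above DMSO in HCC827 and 2.18 and 1.77 in NCI-H1975 (log2, 5 µM). The genes named from each list were those of that list with the largest difference shared by the lines, so their direction in both lines restates that choice.

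The third question is what siDYN did to the same genes. In all 4 siDYN libraries 13 of 40 genes were higher than siCON, against 24.9% of all genes, and 12 were lower, against 25.6%. The 13 were HSPA5, SDF2L1, MANF, CRELD2, HERPUD1, DERL2, SELENOS, SELENOK, OS9, XBP1, ATF6, CREB3 and SEC61B, and the 12 were HSP90B1, DNAJC3, CANX, PDIA6, ERO1A, SEL1L, EDEM1, EDEM3, EIF2AK3, SSR1, SSR3 and CREB3L2. With equal totals or quantile normalization HSPA5, MANF, HERPUD1, OS9, SEC61B, DNAJC3, EIF2AK3 and CREB3L2 changed sign in at least 1 library. The table was tested on its own, over 11718 genes with 40 of the 41, again without ERO1B.

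SELENOK had 47.9 and 45.3 FPKM with the siDYN-1 and siDYN-2 siRNAs in HCC827, against 32.3 FPKM with siCON. In NCI-H1975 SELENOK had 53.8 and 59.0 FPKM with siDYN-1 and siDYN-2, against 27.8 FPKM with siCON. Its fitted log2 difference was 0.75 ± 0.16, with the smallest adjusted p of the 40 genes (limma, 0.0973). EDEM3 had 4.16 and 3.32 FPKM with the siDYN-1 and siDYN-2 siRNAs in HCC827, against 4.94 FPKM with siCON, and 2.74 and 1.88 FPKM in NCI-H1975, against 4.78 FPKM with siCON. Its fitted log2 difference was -0.57 ± 0.19 (limma adjusted p = 0.138).

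DERL3 had 0.25 and 0.15 FPKM with the siDYN-1 and siDYN-2 siRNAs in HCC827, against 0.1 FPKM with siCON, and 1.13 and 0.88 FPKM in NCI-H1975, against 2.35 FPKM with siCON. Its HCC827 values were all below 1 FPKM.

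CRELD2 had 49.3 and 24.0 FPKM with the siDYN-1 and siDYN-2 siRNAs in HCC827, against 21.7 FPKM with siCON. In NCI-H1975 CRELD2 had 33.8 and 24.0 FPKM with siDYN-1 and siDYN-2, against 16.2 FPKM with siCON. It was higher with siDYN-1 than with siDYN-2 in both lines. SDF2L1 showed the same order of siRNAs, with 80.3 and 54.5 FPKM in HCC827, against 41.2 FPKM with siCON, and 143 and 108 FPKM in NCI-H1975, against 87.3 FPKM with siCON. MANF had 111 and 107 FPKM with the siDYN-1 and siDYN-2 siRNAs in HCC827, against 95.4 FPKM with siCON, and 67.4 and 116 FPKM in NCI-H1975, against 64.8 FPKM with siCON. HSPA5 had 246 and 244 FPKM with the siDYN-1 and siDYN-2 siRNAs in HCC827, against 241 FPKM with siCON, and 236 and 216 FPKM in NCI-H1975, against 149 FPKM with siCON. In HCC827 the HSPA5 difference of 0.03 and 0.02 turned negative with equal totals or quantile normalization.

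CANX was below siCON in all 4 siDYN libraries, CALR was above it with both siRNAs in NCI-H1975, and the siRNAs disagreed on PDIA4. CANX had 109 and 78.4 FPKM with the siDYN-1 and siDYN-2 siRNAs in HCC827, against 117 FPKM with siCON, and 81.5 and 61.4 FPKM in NCI-H1975, against 102 FPKM with siCON. CALR had 654 and 783 FPKM with the siDYN-1 and siDYN-2 siRNAs in HCC827, against 721 FPKM with siCON, and 601 and 602 FPKM in NCI-H1975, against 458 FPKM with siCON. PDIA4 had 336 and 201 FPKM with the siDYN-1 and siDYN-2 siRNAs in HCC827, against 252 FPKM with siCON, and 157 and 107 FPKM in NCI-H1975, against 138 FPKM with siCON. PDIA4 was therefore above siCON with siDYN-1 and below it with siDYN-2 in each line. PDIA6 had 204 and 166 FPKM with the siDYN-1 and siDYN-2 siRNAs in HCC827, against 223 FPKM with siCON, and 135 and 108 FPKM in NCI-H1975, against 136 FPKM with siCON.

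CREB3, an ER-anchored factor, had 47.7 and 70.7 FPKM with the siDYN-1 and siDYN-2 siRNAs in HCC827, against 37.5 FPKM with siCON, and 55.2 and 76.2 FPKM in NCI-H1975, against 43.8 FPKM with siCON. Its relative CREB3L2 had 3.36 and 2.33 FPKM with the siDYN-1 and siDYN-2 siRNAs in HCC827, against 3.56 FPKM with siCON, and 5.75 and 4.13 FPKM in NCI-H1975, against 10.2 FPKM with siCON. The CREB3L2 difference with siDYN-1 in HCC827 (-0.07) turned positive with quantile normalization. EIF2AK3 had 3.72 and 3.18 FPKM with the siDYN-1 and siDYN-2 siRNAs in HCC827, against 4.03 FPKM with siCON, and 3.75 and 3.27 FPKM in NCI-H1975, against 5.39 FPKM with siCON. With 18E at 5 µM EIF2AK3 was above DMSO in both lines.

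In the translocon, SSR1 had 9.52 and 7.36 FPKM with the siDYN-1 and siDYN-2 siRNAs in HCC827, against 10.7 FPKM with siCON, and 7.55 and 5.69 FPKM in NCI-H1975, against 12.4 FPKM with siCON. SEC61B had 226 and 255 FPKM with the siDYN-1 and siDYN-2 siRNAs in HCC827, against 202 FPKM with siCON, and 248 and 359 FPKM in NCI-H1975, against 228 FPKM with siCON. SEC61A1 had 144 and 117 FPKM with the siDYN-1 and siDYN-2 siRNAs in HCC827, against 105 FPKM with siCON, and 98.4 and 84.5 FPKM in NCI-H1975, against 94.7 FPKM with siCON. SSR1 was thus below siCON while SEC61B was above it in every siDYN library, apart from SEC61B with siDYN-1, which was below siCON in HCC827 with quantile normalization and in NCI-H1975 with equal totals or quantile normalization.

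**Figure D5:**
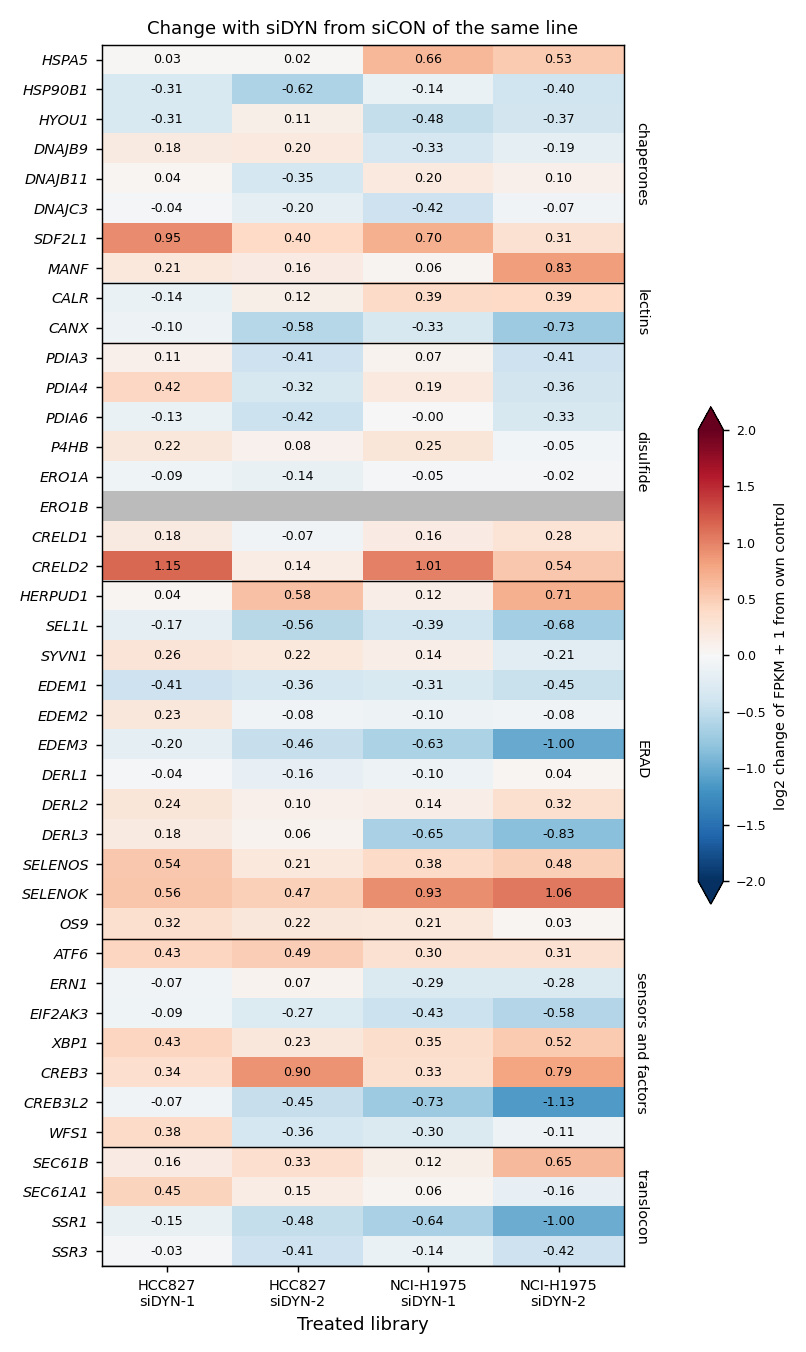
log2 difference of FPKM + 1 between each siDYN library and the siCON library of its own line, for the 41 genes by role, with grey for ERO1B, which did not pass the filter. Colours run to 2 in either direction. SELENOK (0.47 to 1.06) and CREB3 (0.33 to 0.90) are positive in all 4 libraries, and EDEM3 is negative in all 4.

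By limma with Benjamini-Hochberg adjustment 0 of the 40 genes were called with siDYN, where 0% of all genes were called. At an unadjusted p under 0.05, 7 of 40 were higher (SDF2L1, CRELD2, SELENOS, SELENOK, XBP1, ATF6 and CREB3), against 12.6% of all genes. At the same level 6 were lower (HSP90B1, SEL1L, EDEM1, EDEM3, SSR1 and CREB3L2), against 13.4%. At least 2-fold in any of the 4 libraries, 2 were higher (CRELD2 and SELENOK), against 7.95% of all genes, and 2 were lower (EDEM3 and CREB3L2), against 5.52%. Each of these shares is close to that of all genes. The median fitted difference was -0.01, against 0.01 over all genes. With a single siRNA in the fit, limma called 3 of 40 members for siDYN-1, against 13.0% of all genes, and 9 of 39 for siDYN-2, against 18.1%. Such a fit has fewer residual degrees of freedom than the fit with both siRNAs. The difference between the lines in the siDYN response was fitted with the siRNAs standing in for replicates. It called 0 members and 0% of all genes (limma). DERL3 alone was higher at an unadjusted p under 0.05, 1 of 40, against 0.845% of all genes, and 0 were lower, against 0.674%.

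Some values may include reads of other genes, and the use of strand is not given. In GENCODE 29 on GRCh38, 14 of the 41 genes have exons that overlap exons of another protein-coding gene. Among them are HSP90B1, DNAJB9, DNAJB11, CANX, PDIA3, PDIA6, CRELD2, SYVN1, DERL3, SSR1 and CREB3. SYVN1, DNAJB11 and SSR1 overlap a gene on their own strand (FAU, AC068631.2 and CAGE1), where strand would not separate the reads. Named pseudogenes exist for PDIA3, SELENOK, XBP1 and SSR1, and their reads may not be separable. HSPA5 (chr9:125234853-125241330, minus strand), HERPUD1 (chr16:56932048-56944863, plus strand), PDIA4 (chr7:149003062-149028641, minus strand) and MANF (chr3:51385047-51389397, plus strand) have neither.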

How the data were processed

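RNA sequencing was analysed in 12 libraries of HCC827 and NCI-H1975, 6 per experiment. The authors deposited FPKM values with 2 decimals in 1 table per experiment, per the file headers. Bowtie 0.12.2 and the builds mm8 (a mouse build) and GRCh38.p12 are named, with no role, per the submitters' processing notes; for strand, annotation and quantification tool the entry is the same: not given in the sources used here. Complete rows numbered 16760 of 16800 lines (18E) and 17442 of 17462 (siRNA); rows lacking values or holding spilled text were left out. Columns were matched to samples by name.

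Values were transformed to log2(FPKM + 1). Genes that reached 1 FPKM in 2 or more of 6 libraries were tested with limma 3.58.1 in R 4.3.3, with a variance trend, two-sided, adjusted by Benjamini-Hochberg over all genes tested, threshold 0.05. Cell line was a block, because treated and control libraries of a line share that line per the labels. Nothing in the labels tells of separate cultures, so p-values measure only the spread between these libraries. The procedure was also run on simulated data with a capped spread, no line effect and the same change in both lines. That run does not show how the procedure performs where the lines disagree, as they do here. Single libraries were compared with the control of their own line and table, and 2-fold means a log2 difference of at least 1. Depth is unknown, because FPKM came with no read totals, so no counting interval is given.

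The members, their roles, the other lists and the rules were chosen with earlier results of these data known. In each role, up to 5 genes with the largest single-library difference with 18E, and up to 3 with siDYN, are given in every library. Of the other 2 lists, up to 6 genes in all are named, ranked within each list. Of the motif matches, the 4 genes with the largest fitted difference are printed, ERSE-II being treated as an ERSE. Sequences and motif windows are from RefSeq (GRCh38.p14). Alternatives were a pseudocount of 0.1, no filter, quantile normalization, equal totals, no variance trend, no line term, single siRNAs and each library left out.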

Additional observations from a re-analysis of the deposited data

Results flagged for a closer look

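At both doses 4 genes lay on opposite sides of DMSO in the 2 lines, with a fitted gap of at least 1 on the log2 scale. The share of all genes that meet this rule was not computed. Without the gap, 8 of 40 members were lower in HCC827 and higher in NCI-H1975, against 5.81% of all genes. The reverse held for 0 members, against 8.01% of all genes. The gap, HCC827 minus NCI-H1975, was -1.03 for HYOU1, -1.36 for PDIA4, -1.45 for MANF and -1.12 for CRELD2. Every 18E library of HCC827 was below its DMSO library and every 18E library of NCI-H1975 above its own for these genes, which restates the rule apart from its direction. The interaction did not pass the threshold (limma adjusted p = 0.999 for each). In HCC827 the HYOU1 difference at 2.5 µM was -0.02.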

How the results depend on the processing

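With 1 library per line and treatment, depth unknown and 2 or 3 residual degrees of freedom in the main fits, counts of calls moved with the setting. Fits with a library left out or with a single siRNA have fewer residual degrees of freedom, so their spread rests on fewer libraries. At 5 µM the 1 gene called became 0 with equal totals, no filter, no variance trend, quantile normalization or no replicate block, 16 with a pseudocount of 0.1, and 33 to 4490 with 1 library left out (4490 without the NCI-H1975 library of 5 µM); calls among the members became 2 with that pseudocount and 3 to 15 with a library left out. With a library left out, genes called were 0 to 23 at 2.5 µM and 0 to 3441 between the doses, with 0 to 12 members; the member medians were -0.097 to 0.259 and -0.194 to 0.322. Without the NCI-H1975 DMSO library the median at 2.5 µM was -0.097, and without the NCI-H1975 library of 5 µM the median between the doses was -0.194. For siDYN, siDYN-1 alone called 1477 genes and 3 members with a median of 0.084, siDYN-2 alone 2073 genes and 9 members, and a library left out 0 to 130 genes; equal totals gave a median of -0.127. For the line difference with siDYN, a pseudocount of 0.1 called 1 gene, equal totals gave a median of 0.117, and a library left out -0.049 to 0.163. Members 2-fold higher in NCI-H1975 at 5 µM became 6 with equal totals, and members lower in HCC827 and higher in NCI-H1975 at every dose became 9 to 18 with a library left out, which asks for fewer libraries. The 42 member differences with an unadjusted limma p under 0.05 in the main fit were recomputed, giving 508 values. Of these, 459 kept their direction and side of the threshold, 49 passed it newly and 0 reversed. Differences picked for a small p seldom reverse, and none was called in the main fit, so none could lose a call. In single libraries members did change sign, 7 of them in HCC827 with siDYN-1 under quantile normalization. No value exists for a difference between lines without a control library, without the line term or with 1 siRNA.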

Other observations

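OS9, an ERAD lectin on chr12:57693955-57721557 (GRCh38), differed in level between the lines by more than with any treatment. It had 1707 FPKM in HCC827 and 89.9 FPKM in NCI-H1975 with DMSO, and 1324 FPKM in HCC827 and 106 FPKM in NCI-H1975 with siCON. Within 500 kb of it, 19 other genes passed the filter in both tables. At least 2-fold higher in HCC827 in both control pairs were 4 of these 19 (PIP4K2C, AGAP2, TSPAN31 and CDK4), against 6.75% of all genes tested in both tables, and 2 of the 19 were at least 2-fold lower (NXPH4 and ATP23), against 9.14%. CDK4 had 1706 FPKM in HCC827 and 204 FPKM in NCI-H1975 with DMSO. These genes were looked at after the OS9 values were seen, and nothing was tested.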
